A study of Mus musculus with 24 samples.

Results

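The Hes and Hey genes are a family of transcriptional repressors, and 6 of them, Hes1, Hes5, Hes6, Hey1, Hey2 and Heyl, were followed across a Notch perturbation series in T6E cells, a murine T-cell leukaemia line that depends on Notch1. They were taken as a named list, with 1 probe set per gene, out of 19938 genes measured on the same arrays. Each of the 6 had a single probe set, and none of these was shared with another symbol. The series held 24 arrays in 8 groups of 3.

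Cells carried 1 of 4 constructs, for 6 hours in either compound E at 1 uM, which inhibits gamma-secretase (GSI), or its vehicle DMSO. R1984A is an intracellular Notch1 that is defective in dimerization. ICN1 is intracellular Notch1, which acts without cleavage by gamma-secretase. DNMAML is a dominant negative Mastermind, which joins the Notch complex without activating it. MigR1 is the empty vector. The groups were thus R1984A-GSI, R1984A-DMSO, ICN1-GSI, ICN1-DMSO, DNMAML-GSI, DNMAML-DMSO, MigR1-GSI and MigR1-DMSO. All groups are the same cell line, so the control cells also carry its own Notch1 signal, and the labels do not say whether the cells carrying a construct were pools or clones. Whether the 3 samples of a group were grown apart is not stated either, and the p-values below therefore reflect the spread among 3 samples that could be technical repeats.

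When Notch is cleaved, its intracellular part enters the nucleus, binds the DNA-binding protein Rbpj together with Mastermind, and switches on target genes. At some targets a pair of such complexes sits head to head on paired Rbpj sites and dimerizes, and the Hes1 promoter is a textbook example of such a pair. Hes and Hey proteins bind DNA through a basic helix-loop-helix domain, recruit corepressors such as the Groucho (Tle) proteins, and shut down their own targets. Hes1 is the member best known for a role in T-cell development and T-cell leukaemia. Hey1, Hey2 and Heyl are best known from heart and blood vessels, Hes5 from neural progenitors, and Hes6 as a relative that antagonizes Hes1.

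RefSeq promoter windows of build GRCm38.p6, from 250 bases before to 50 bases after a transcript start, were matched for 3 of the 6 members, Hes5, Hey2 and Hes6. They are shown because they differ in whether they hold the letters of the Rbpj core, TGNGAA, which stand in capitals in either orientation. The Hes5 window is chr4:154960673-154960972 on the plus strand, that of Hey2 is chr10:30842734-30843033 on the minus strand, and that of the upstream Hes6 start is chr1:91413989-91414288 on the minus strand. Each is written 5′ to 3′ along its gene.
Hes5: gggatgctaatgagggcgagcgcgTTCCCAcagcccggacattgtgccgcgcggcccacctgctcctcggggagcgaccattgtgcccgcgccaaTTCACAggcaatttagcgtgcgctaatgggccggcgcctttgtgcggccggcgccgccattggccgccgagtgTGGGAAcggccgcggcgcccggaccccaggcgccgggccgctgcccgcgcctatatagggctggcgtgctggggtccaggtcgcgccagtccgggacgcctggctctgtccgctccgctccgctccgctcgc
Hey2: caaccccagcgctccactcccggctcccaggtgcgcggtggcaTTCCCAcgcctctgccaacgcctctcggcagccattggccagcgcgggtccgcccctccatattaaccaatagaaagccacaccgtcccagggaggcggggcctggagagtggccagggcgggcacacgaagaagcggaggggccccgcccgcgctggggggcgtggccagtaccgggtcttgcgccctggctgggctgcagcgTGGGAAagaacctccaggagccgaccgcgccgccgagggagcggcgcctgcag
Hes6: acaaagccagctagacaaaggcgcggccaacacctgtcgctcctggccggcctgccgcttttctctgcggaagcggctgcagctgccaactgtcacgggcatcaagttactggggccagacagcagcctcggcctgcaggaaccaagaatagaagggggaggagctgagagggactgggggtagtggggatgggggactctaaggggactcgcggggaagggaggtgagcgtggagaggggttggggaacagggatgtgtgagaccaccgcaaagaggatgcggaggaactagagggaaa

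The Hes5 window held 3 TGNGAA matches, beginning 226, 155 and 82 bases before the start, and the last, like the first, spelled TGGGAA when read on its own strand. Hey2 held 2, both of them TGGGAA, beginning 207 and 3 bases before the start. Neither Hes6 window held a match. These letters are common. On either strand TGNGAA occurred in 50.7% and TGGGAA in 25.6% of the 32851 promoter windows. A head-to-head pair, TGNGAA followed after 15 to 17 bases by TTCNCA, was in 0.152% of windows and in none of those of Hes5, Hes6 or Hey2. Of the motifs that Hes and Hey proteins are known to bind, the N box CACNAG was in 42.5% of windows and, among these members, in the second Hes6 window. The E box CACGTG was in 7.15% of windows and in none of the members'. A match is a run of letters and not a measured binding site.

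Expression is given as the deposited log2 value, on which a difference of 1 is a factor of 2. The medians of the 24 arrays lay between 3.90 and 4.18, and a probe set near or below them reads little above background. Arrays of the same group correlated across genes with r of 0.982 to 0.994. The label of a T-cell line was checked with markers, of which 9 of 10 measured T-cell genes lay above every array median in all 8 groups, while 5 of 5 B-cell and 6 of 6 myeloid markers lay below. Among 7 markers of endothelium and smooth muscle, where Hey genes are usually high, 5 lay below in all 8 groups. The other 2 lists were mixed. Of 4 erythroid markers 2 lay above in all 8 groups and 1 below, and of 6 stroma and epithelium markers 2 lay above and 2 below. The highest of these, Col1a1, averaged 5.06, so a level somewhat above the medians does not by itself show that a gene is expressed. The Notch1 probe set, read as a check of the constructs, averaged 7.07 ± 0.08 in R1984A-GSI, 7.32 ± 0.07 in ICN1-GSI, 5.81 ± 0.19 in DNMAML-GSI and 5.66 ± 0.06 in MigR1-GSI (SD, n = 3 each). Where that probe set lies relative to the part of Notch1 in the constructs was not examined.

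Comparisons were made with limma over all 24 arrays, and a gene was called when its Benjamini-Hochberg adjusted p over the 19938 genes was under 0.05. Differences are the group named first minus the group named second, with the standard error (SE) or a 95% interval. All adjusted p-values below come from this limma fit.

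Hey1 was called in 5 of the 12 comparisons and Hes1 in 4, and no other member in any. The Hey1 arrays fell into a high and a low set. The values were 9.94, 9.84 and 9.94 in R1984A-GSI and 10.06, 10.01 and 10.02 in R1984A-DMSO. In ICN1-GSI they were 9.87, 10.01 and 9.89, and in ICN1-DMSO 9.94, 9.98 and 9.91. Where a Notch1 construct that needs no cleavage was present, the inhibitor thus left Hey1 near 10, with GSI and DMSO arrays overlapping in ICN1 cells and the GSI arrays slightly lower in R1984A cells. DNMAML-GSI arrays read 8.68, 8.43 and 8.37, and DNMAML-DMSO arrays 9.22, 9.34 and 9.09. MigR1-GSI arrays read 8.88, 8.90 and 8.59, and MigR1-DMSO arrays 9.89, 9.79 and 9.69. The 9 arrays of DNMAML cells and of MigR1 cells in GSI were all below the 15 others. In the order of group means, R1984A-DMSO stood highest and DNMAML-GSI lowest. R1984A-DMSO did not overlap its neighbour ICN1-DMSO, although their means were only 0.08 apart, and the next 4 groups, down to MigR1-DMSO, overlapped from one to the next. DNMAML-DMSO stood clear of its neighbours on both sides, 0.57 below MigR1-DMSO and 0.43 above MigR1-GSI, while MigR1-GSI and DNMAML-GSI overlapped.

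**Figure D1:**
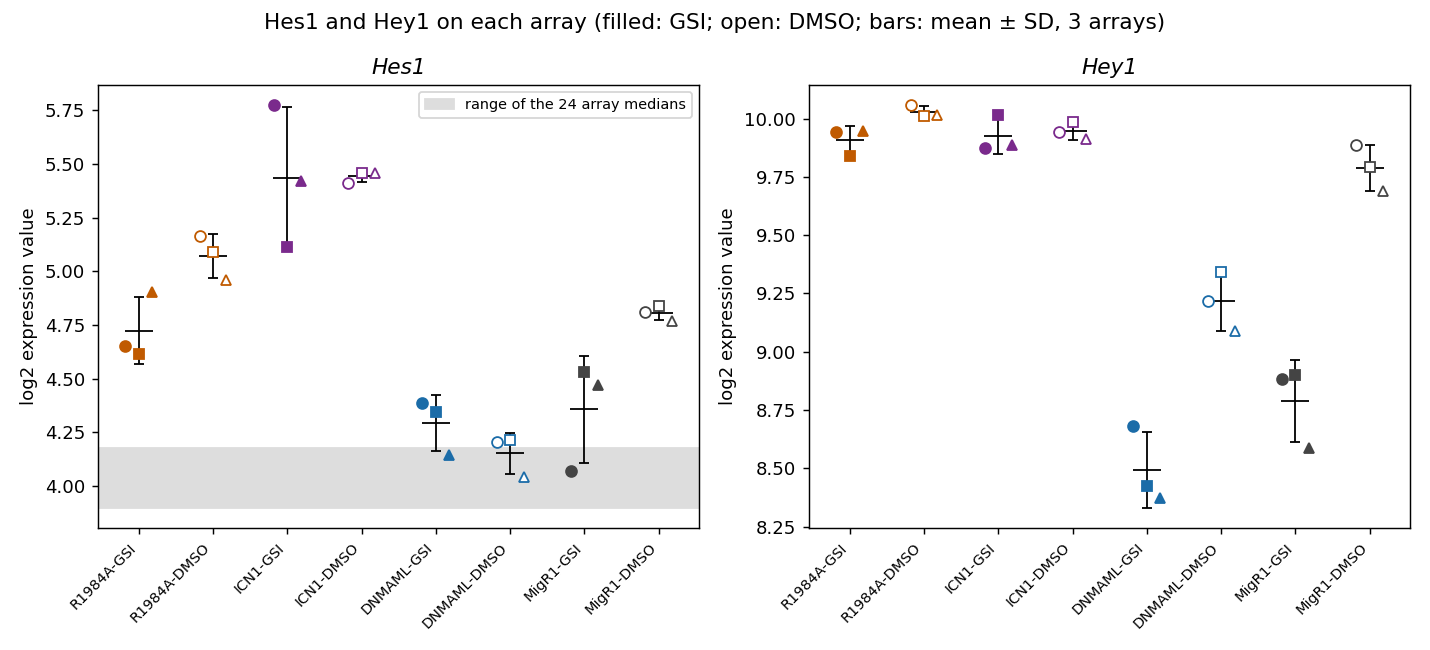
Log2 expression values of Hes1 and Hey1 on each of the 24 arrays, by group. Filled symbols are GSI and open symbols DMSO, circles, squares and triangles are replicates 1, 2 and 3, and bars are the mean ± SD of 3 arrays. The grey band in the Hes1 panel is the range of the array medians, 3.90 to 4.18. Hey1 lay at 9.69 or above on every array of R1984A-GSI, R1984A-DMSO, ICN1-GSI, ICN1-DMSO and MigR1-DMSO, and at 9.34 or below on the others.

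In MigR1 cells GSI lowered Hey1 to 0.501 times its level in DMSO (95% interval 0.430 to 0.583), a log2 difference of -0.998 (SE 0.11, adjusted p = 2.0e-05). It ranked 3 among all genes by p-value. In such bulk RNA, fewer cells expressing a gene and less of its RNA per cell cannot be told apart. Hes1 read 4.07, 4.53 and 4.47 in MigR1-GSI, against 4.81, 4.84 and 4.77 in MigR1-DMSO. Its difference of -0.45 (95% interval -0.74 to -0.16) did not pass the test (adjusted p = 0.52). Hey1 was thus the 1 of 6 members called, and it was lower, where 0.135% of all genes were called lower. Both Hes1 and Hey1 had all GSI arrays below the DMSO arrays, 2 of 6 members, as did 4% of all genes. The other 4 members lay between -0.15 (Heyl) and 0.26 (Hey2) and were not called, with GSI and DMSO arrays overlapping for each. In a fit of only the 6 arrays compared, the Hey1 difference was the same and its adjusted p was 0.092.

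DNMAML in DMSO lowered both Hey1 and Hes1. Hey1 averaged 9.22 ± 0.13 in DNMAML-DMSO and 9.79 ± 0.10 in MigR1-DMSO (SD, n = 3 each), a difference of -0.57 (SE 0.11, adjusted p = 0.0035) or 0.673 times. Hes1 had 4.20, 4.21 and 4.04 in DNMAML-DMSO, against 4.81, 4.84 and 4.77 in MigR1-DMSO. No Hes1 array of the groups overlapped, and the difference was -0.65 (SE 0.14, adjusted p = 0.012) or 0.636 times. These DNMAML arrays of Hes1 lie at or just above the array medians, so the size of the fall is uncertain. Both were lower, 2 of 6 members, against 0.833% of all genes called lower. The 4 remaining members were not called, and Heyl, at -0.25 (95% interval -0.53 to 0.03), was the one of them whose arrays did not overlap. With it 3 of 6 members had all DNMAML arrays below the MigR1 arrays, as did 8.02% of all genes. The Hes1 call was lost without MigR1-DMSO replicate 2 (adjusted p = 0.058) and without DNMAML-DMSO replicate 3 (adjusted p = 0.071). This comparison shares its MigR1-DMSO arrays with that of GSI in MigR1 cells.

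GSI lowered Hey1 in DNMAML cells too. The 3 DNMAML-GSI arrays, at 8.37 to 8.68, were all below the 3 DNMAML-DMSO arrays, at 9.09 to 9.34, and the difference was -0.72 (SE 0.11, adjusted p = 0.014) or 0.606 times. Hey1 was the only one of the 19938 genes called in this comparison, 0.00502% of them. The call did not survive a fit of only these groups (adjusted p = 1.00, with 0 genes called) and was lost in 4 of 6 fits that left out 1 array, with the largest adjusted p, 0.28, without DNMAML-DMSO replicate 2. The others to lose it were the fits without DNMAML-DMSO replicate 1 (0.13), DNMAML-GSI replicate 2 (0.21) and DNMAML-GSI replicate 3 (0.26). Over the fits without 1 array the difference stayed between -0.82 and -0.66. Hes1 was not called there, with 4.39, 4.35 and 4.15 in DNMAML-GSI and a difference of 0.14 (95% interval -0.15 to 0.43). Heyl arrays were all higher in DNMAML-GSI, at 4.35, 4.72 and 4.55, than in DNMAML-DMSO, at 4.22, 4.22 and 4.27, but the difference of 0.30 was not called (adjusted p = 1.00). Of all genes, 3.46% had every GSI array below the DMSO arrays, as Hey1 did, and 3.8% had every one above, as Heyl did. Under GSI, no member passed the test between DNMAML and MigR1 cells. Hey1 was at -0.30 (95% interval -0.52 to -0.08, adjusted p = 0.51) and Hes1 at -0.06 (95% interval -0.35 to 0.23). Limma called 0 of 6 members there, with 1 at an unadjusted p under 0.05 (6.26% of all genes), and 0.191% of all genes. The fall of Hey1 under GSI was 0.27 smaller in DNMAML than in MigR1 cells on the log2 scale, a difference of responses that did not pass the test (95% interval -0.04 to 0.59, adjusted p = 1.00).

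**Figure D2:**
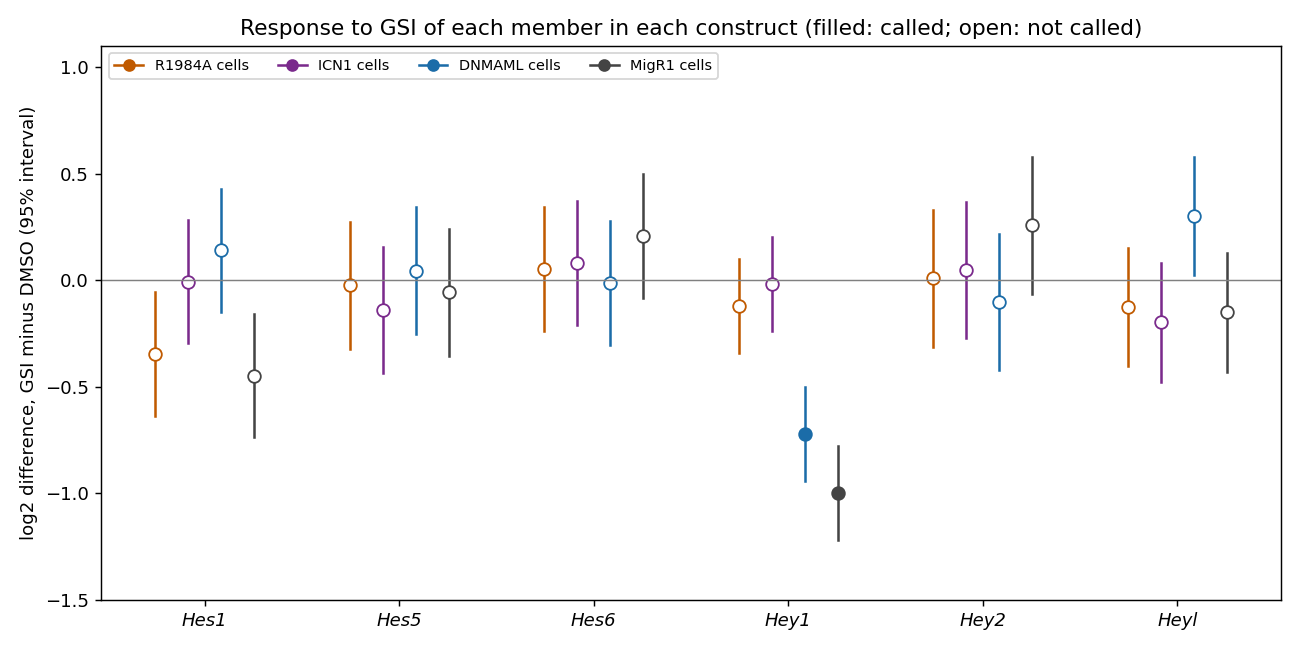
Log2 difference, GSI minus DMSO, of each member in cells with each construct, with 95% intervals from the limma fit. Filled points were called at an adjusted p under 0.05 and open points were not. Hey1 was called in DNMAML cells (-0.72) and MigR1 cells (-0.998), and no other point was.

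Under GSI, ICN1 held both Hes1 and Hey1 above the empty vector. Hes1 had 5.77, 5.11 and 5.42 in ICN1-GSI, against 4.07, 4.53 and 4.47 in MigR1-GSI. The ICN1-GSI arrays of Hes1 were widely spread and still all above those of MigR1-GSI, by 1.08 on average (SE 0.14, adjusted p = 2.8e-05) or 2.11 times (95% interval 1.73 to 2.58). Hey1 was higher by 1.14 (SE 0.11, adjusted p = 3.4e-07) or 2.20 times (1.89 to 2.56). That made 2 of 6 members higher, against 1.28% of all genes called higher, and for the same 2 genes the arrays did not overlap, as for 5.87% of all genes in that direction. Hes5, Hes6, Hey2 and Heyl lay between -0.23 (Hey2) and -0.001 (Hes6) with no call.

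R1984A under GSI raised Hey1 above the empty vector, while its effect on Hes1 did not pass the test. Hey1 was higher than in MigR1-GSI by 1.12 (SE 0.11, adjusted p = 7.3e-07) or 2.17 times, and it was the 1 of 6 members called, against 1.04% of all genes called higher. Hes1 had 4.65, 4.61 and 4.90 in R1984A-GSI, all above the MigR1-GSI arrays, but its difference of 0.37 (95% interval 0.08 to 0.65) was not called (adjusted p = 0.42). These 2 genes had no overlap between the groups, as had 5.3% of all genes in that direction. Heyl was at 0.36 (95% interval 0.09 to 0.64, adjusted p = 0.38), with 1 R1984A-GSI array, at 4.44, inside the MigR1-GSI range. The R1984A and ICN1 comparisons in GSI share their MigR1-GSI arrays with each other and with the comparison of GSI in MigR1 cells.

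Set directly against ICN1-GSI, R1984A-GSI had less Hes1. The arrays at 4.65, 4.61 and 4.90 in R1984A-GSI did not overlap those at 5.77, 5.11 and 5.42 in ICN1-GSI, and the difference was -0.71 (SE 0.14, adjusted p = 0.0082) or 0.610 times. Hey1 averaged 9.91 ± 0.06 in R1984A-GSI and 9.93 ± 0.08 in ICN1-GSI (SD, n = 3 each), a difference of -0.02 with a 95% interval of -0.24 to 0.20. The Hes1 interval in linear terms was 0.499 to 0.746 times and that of Hey1 0.848 to 1.15 times. A test of one gene's difference against the other's was not run. Hes1 was the 1 of 6 members called, and lower, against 0.321% of all genes called lower. Non-overlapping arrays in that direction were found for 5.87% of all genes. Heyl leaned the other way, at 0.37 (95% interval 0.09 to 0.65, adjusted p = 0.32), with all R1984A-GSI arrays above those of ICN1-GSI, as for 6.19% of all genes. The Hes1 call was lost without ICN1-GSI replicate 1, the highest array of that group (difference -0.54, adjusted p = 0.069), without R1984A-GSI replicate 2 (adjusted p = 0.064) and in a fit of only these groups (adjusted p = 0.21). Notch1 itself was at -0.25 in R1984A-GSI against ICN1-GSI (95% interval -0.51 to 0.02, adjusted p = 0.62), and its part in the Hes1 difference was not tested.

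Without the inhibitor no difference of Hey1 between constructs and vector passed the test for R1984A or ICN1. It averaged 10.03 ± 0.02 in R1984A-DMSO, 9.95 ± 0.04 in ICN1-DMSO and 9.79 ± 0.10 in MigR1-DMSO (SD, n = 3 each). Every array of both constructs was above the MigR1-DMSO arrays, yet neither the R1984A difference of 0.24 (95% interval 0.02 to 0.46, adjusted p = 0.65) nor the ICN1 difference of 0.16 (95% interval -0.06 to 0.38, adjusted p = 0.98) was called. Hes1 had 5.16, 5.09 and 4.96 in R1984A-DMSO, 5.41, 5.46 and 5.46 in ICN1-DMSO, and 4.81, 4.84 and 4.77 in MigR1-DMSO. The 3 groups did not overlap and stood in that order of ICN1 over R1984A over MigR1. The ICN1 difference was 0.64 (SE 0.14, adjusted p = 0.026) or 1.55 times, 1 of 6 members, against 0.421% of all genes called higher. This call was lost in each of 6 fits without 1 array, with adjusted p up to 0.12 and the difference between 0.62 and 0.65. The R1984A difference of Hes1 was 0.26 (95% interval -0.03 to 0.55) and that of R1984A against ICN1 -0.37 (95% interval -0.66 to -0.08, adjusted p = 0.39). Groups without overlap were found, with ICN1 higher than MigR1, for Hes1 and Hey1 and for 6.78% of all genes. With R1984A higher than MigR1 they were found for Hes1, Hey1 and Heyl and for 6.56% of all genes. With R1984A higher than ICN1 they were found for Hey1 and Heyl and for 6.86% of all genes, and with R1984A lower for Hes1 and 6.5% of all genes. In the R1984A comparisons in DMSO limma called 0 of 6 members each, with 2 each at an unadjusted p under 0.05, where 0.978% of all genes were called for R1984A against MigR1 and 0.963% for R1984A against ICN1. At an unadjusted p under 0.05 were 6.66% and 7.07% of all genes.

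**Figure D3:**
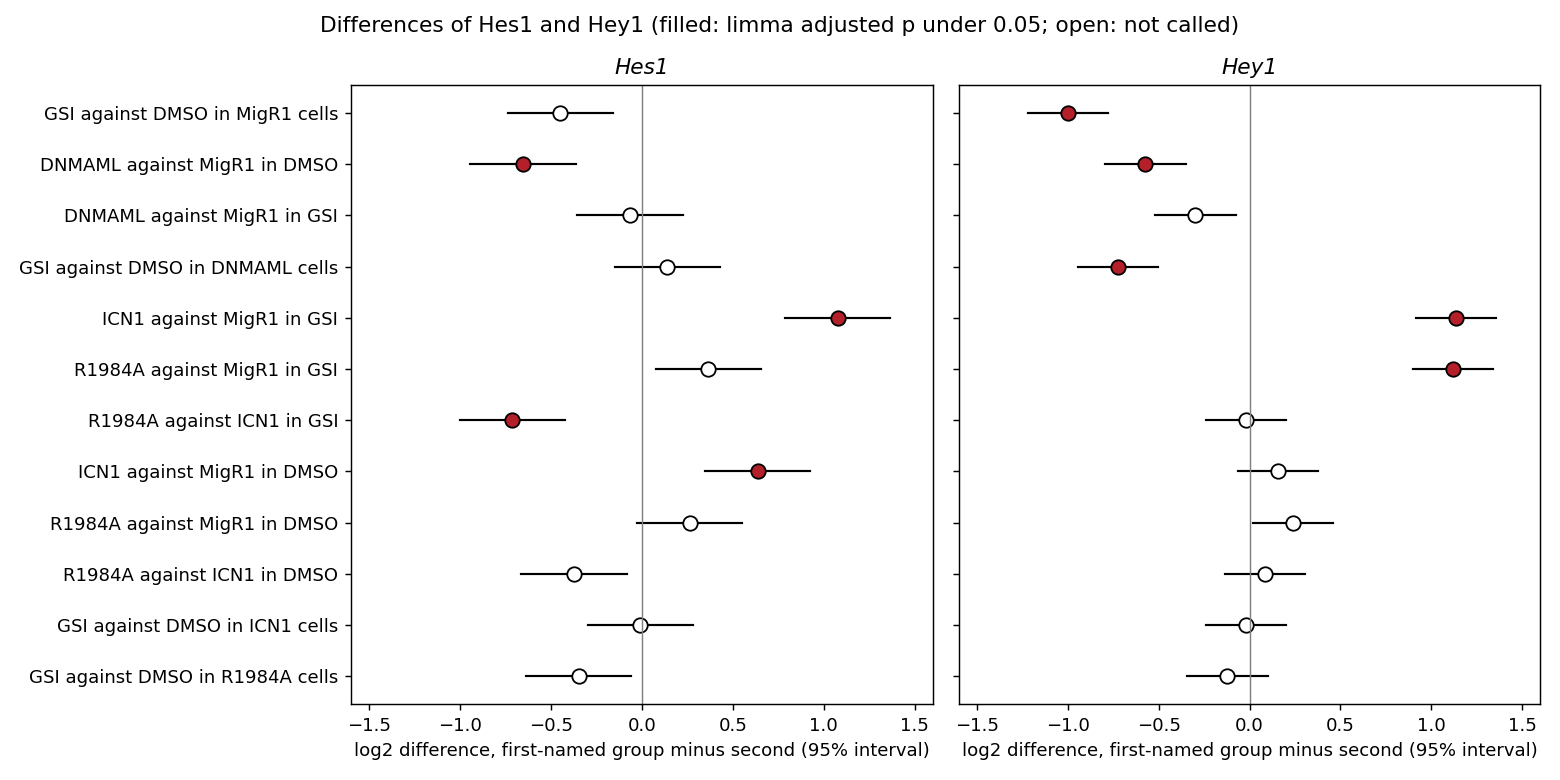
Log2 differences of Hes1 and Hey1 in the 12 comparisons, the group named first minus the one named second, with 95% intervals from the limma fit of 24 arrays. Filled points were called at an adjusted p under 0.05. R1984A against ICN1 in GSI was at -0.71 for Hes1 and -0.02 for Hey1, while the cells of both constructs stood above MigR1 in GSI by 1.12 (R1984A) and 1.14 (ICN1) for Hey1.

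The response to GSI itself was then set between constructs. In ICN1 cells Hey1 was at -0.02 (95% interval -0.24 to 0.20) and in R1984A cells at -0.12 (95% interval -0.34 to 0.10). The response in ICN1 cells differed from that in MigR1 cells by 0.98 (SE 0.15, adjusted p = 0.0090), 1 of 6 members, where 0.015% of all genes were called. In R1984A cells it differed by 0.88 (SE 0.15, adjusted p = 0.030), again 1 of 6 members, with 0.0251% of all genes called. The call for ICN1 cells was lost without MigR1-DMSO replicate 1 (adjusted p = 0.057) or ICN1-GSI replicate 2 (0.055), and that for R1984A cells in 11 of 12 fits without 1 array (adjusted p up to 0.15), the exception being the fit without MigR1-GSI replicate 1. Between R1984A and ICN1 cells the Hey1 responses differed by -0.10 (95% interval -0.41 to 0.21). Hes1 was at -0.01 (95% interval -0.30 to 0.28) under GSI in ICN1 cells. In R1984A cells it was at -0.35 (95% interval -0.64 to -0.06, adjusted p = 1.00), with the GSI arrays, at 4.61 to 4.90, all below the DMSO arrays, at 4.96 to 5.16. In R1984A cells Hes1 and Hey1 both had all GSI arrays lower, as had 3.08% of all genes. In ICN1 cells Heyl alone had, at 4.33, 4.23 and 4.43 in GSI against 4.55, 4.58 and 4.46 in DMSO, as had 2.85% of all genes. The Hes1 responses of R1984A and ICN1 cells differed by -0.34 (95% interval -0.75 to 0.07), which was not called. Limma called 0 of 6 members and 0% of all genes for GSI in ICN1 cells and in R1984A cells, with 0 and 1 members at an unadjusted p under 0.05 and 472 and 635 of all genes. For the response of DNMAML against MigR1 cells it called 0 members, 2 of them (Hes1 and Heyl) at an unadjusted p under 0.05 (3.11% of all genes), and 0.00502% of all genes, and for R1984A against ICN1 cells 0 members, 0 at an unadjusted p under 0.05, and 0% of all genes.

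In the order of its levels Hes1 ran from ICN1-DMSO (5.44 ± 0.03) and ICN1-GSI (5.44 ± 0.33) through R1984A-DMSO (5.07 ± 0.10), MigR1-DMSO (4.81 ± 0.03), R1984A-GSI (4.72 ± 0.16) and MigR1-GSI (4.36 ± 0.25) to DNMAML-GSI (4.29 ± 0.13) and DNMAML-DMSO (4.15 ± 0.10). Neighbours overlapped except at 2 steps, between R1984A-DMSO and MigR1-DMSO and between R1984A-GSI and MigR1-GSI. R1984A-GSI thus overlapped MigR1-DMSO, while both ICN1 groups lay above it. Hey1 placed MigR1-DMSO with the 4 groups that carried a Notch1 construct, and Hes1 placed it between the ICN1 groups and those of DNMAML cells. Over the 8 group means Hes1 and Hey1 had a Pearson r of 0.80, a description over groups that share arrays and constructs.

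Hes5, Hes6 and Hey2 were not called in any of the 12 comparisons or the 4 differences of responses. Hes5 read between 5.06 and 5.74 on the 24 arrays, and its group means spanned 0.15, larger than the span of only 5.61% of all genes. Its highest and lowest arrays, at 5.74 and 5.06, were both in MigR1-GSI. Hes6 read between 5.19 and 5.82 with a span of group means of 0.28, and its largest difference was 0.28 for DNMAML against MigR1 in DMSO (95% interval -0.02 to 0.57, adjusted p = 0.53). Hey2 read 2.25 to 3.08, below the median of its own array on 24 of 24 arrays, so no level above background was shown and differences carry little meaning. Among these 3, neighbouring groups overlapped at every step in the order of levels. Hes5 averaged 5.37 and Hes6 5.51, not far above Col1a1 at 5.06, so their levels alone do not show that they are expressed. The Hes5 and Hey2 windows printed above hold TGGGAA and those of Hes6 do not, and none of the 3 genes moved past the test. With expression not shown, no relation of these letters to a response is read from this.

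Heyl lay just above the array medians, between 4.06 and 4.99, and followed another order. Its highest groups were R1984A-DMSO, with 4.85, 4.99 and 4.63, and R1984A-GSI, with 4.93, 4.44 and 4.73. MigR1-DMSO had 4.53, 4.52 and 4.42, and DNMAML-DMSO, the lowest, had 4.22, 4.22 and 4.27. R1984A-DMSO stood clear of MigR1-DMSO by 0.34 (95% interval 0.06 to 0.61, adjusted p = 0.53) and of ICN1-DMSO by 0.30 (95% interval 0.02 to 0.57, adjusted p = 0.62). None of its 16 tests was called, and neighbours in its order overlapped at every step.

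**Figure D4:**
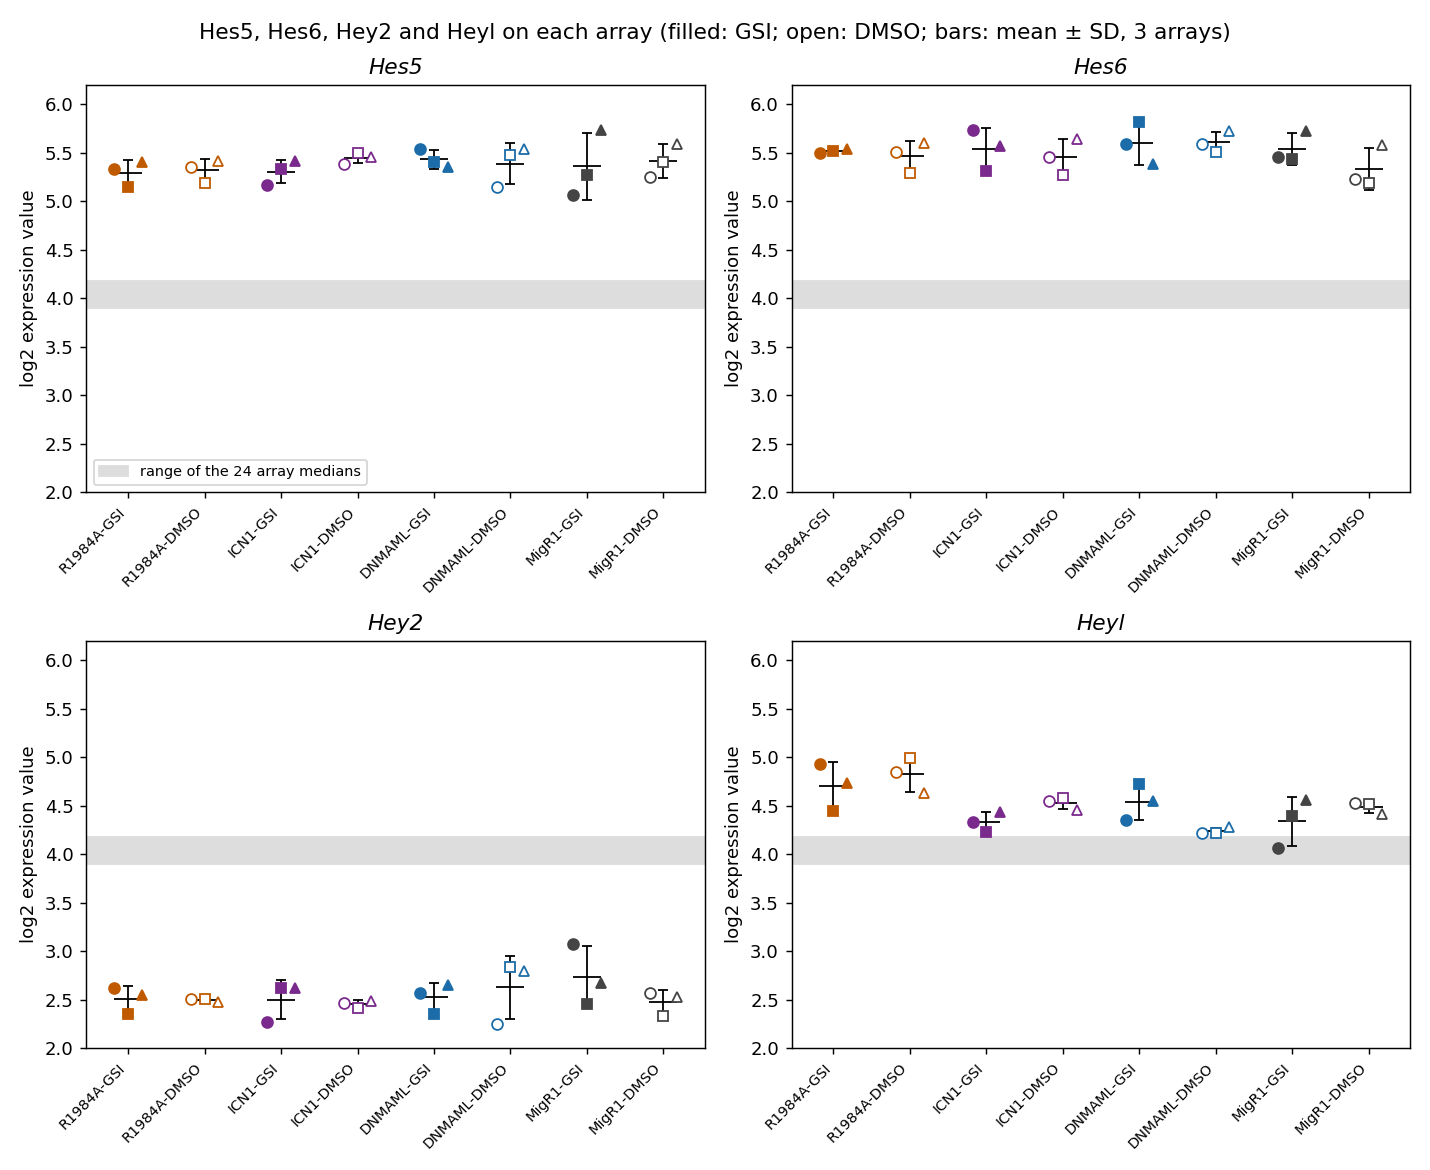
Log2 expression values of Hes5, Hes6, Hey2 and Heyl on each of the 24 arrays, by group, on 1 common axis. Filled symbols are GSI and open symbols DMSO, circles, squares and triangles are replicates 1, 2 and 3, bars are the mean ± SD of 3 arrays, and the grey band is the range of the array medians. Hey2 lay at 3.08 or below on every array, under the band, and Heyl at 4.06 to 4.99, at and just above it.

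Of the 6 other measured genes of the wider bHLH-Orange family, Hes2, Hes3, Helt and Bhlhe40 stayed below the array medians in all 8 groups. Bhlhe41, a repressor known from circadian control, was called in 4 comparisons. It was at 1.46 for DNMAML against MigR1 in DMSO (SE 0.20, adjusted p = 1.7e-04), at -1.44 for ICN1 against MigR1 in GSI (SE 0.20, adjusted p = 6.6e-05), at -1.47 for R1984A against MigR1 in GSI (SE 0.20, adjusted p = 7.3e-05) and at -1.26 for ICN1 against MigR1 in DMSO (SE 0.20, adjusted p = 9.3e-04). Its ICN1-DMSO level of 3.75 lay below the array medians. Hes7, an oscillating repressor of somite segmentation, was higher in ICN1-GSI, at 5.52, than in MigR1-GSI, at 4.73 (difference 0.79, SE 0.19, adjusted p = 0.020), a call lost without MigR1-GSI replicate 1 (adjusted p = 0.14), MigR1-GSI replicate 3 (0.073) or ICN1-GSI replicate 3 (0.11), with array weights (0.059) and in a fit of only these groups (0.11). Counted over the 6, 1 was higher and 0 lower for DNMAML in DMSO, 1 and 1 for ICN1 in GSI, 0 and 1 for R1984A in GSI, 0 and 1 for ICN1 in DMSO, all against MigR1, and 0 in the other comparisons. Of all genes, 1.1% were called higher for DNMAML in DMSO and 1.28% for ICN1 in GSI. Called lower were 1.07% for ICN1 in GSI, 0.326% for R1984A in GSI and 0.306% for ICN1 in DMSO.

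Few of the corepressors and partners that Hes and Hey proteins work with were called. Of 10 measured corepressors (Groucho family, histone deacetylases, Sirt1 and Sin3a) limma called 0 in each of the 12 comparisons, with at most 2 at an unadjusted p under 0.05, for DNMAML against MigR1 in GSI, where 6.26% of all genes were. Of the Groucho genes, Tle3, with group means of 7.57 to 8.13, and Tle5, with 6.04 to 6.51, lay above the array medians in all 8 groups, while Tle1, Tle2, Tle4 and Tle6 lay below. Of 9 bHLH partners and Id proteins, 2 were higher for R1984A against MigR1 in GSI, where 1.04% of all genes were called higher. The 2 were Id2, which sequesters E proteins (0.99, SE 0.14, adjusted p = 1.2e-04), and the E protein gene Tcf4 (0.42, SE 0.10, adjusted p = 0.021). The Tcf4 call was lost in 5 of 6 fits without 1 array (adjusted p up to 0.14). Id2 was also higher for R1984A against MigR1 in DMSO (0.82, SE 0.14, adjusted p = 0.0016), where 0.868% of all genes were called higher. Tcf4 was higher for ICN1 against MigR1 in GSI (0.56, SE 0.10, adjusted p = 9.4e-04) and in DMSO (0.55, SE 0.10, adjusted p = 0.0035), but not in fits of only the groups compared (adjusted p = 0.11 and 0.061). Of all genes, 1.28% were called higher for ICN1 in GSI and 0.421% in DMSO. Id3, another Id protein, was higher for R1984A against ICN1 in DMSO (0.94, SE 0.20, adjusted p = 0.015), where 0.702% of all genes were called higher. That call was lost in 4 of 6 fits without 1 array (adjusted p up to 0.12). Of 10 genes of the Notch complex, Notch1 was the 1 called, higher in both constructs in both treatments, and Rbpj and the Mastermind genes were not called. In those comparisons 1.04% (R1984A) and 1.28% (ICN1) of all genes were called higher in GSI, and 0.868% and 0.421% in DMSO.

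Genes that have been reported as repressed by Hes1 were counted in the same comparisons. Of 8 measured, 2 were higher and 0 lower for DNMAML against MigR1 in DMSO, where 1.1% of all genes were called higher. They were the coreceptor gene Cd4 (0.97, SE 0.15, adjusted p = 7.3e-04) and the cell-cycle inhibitor Cdkn1b (0.62, SE 0.13, adjusted p = 0.0079). The median difference of the 8 was 0.23, against 0.00 over all genes. For ICN1 against MigR1 in GSI, where 1.07% of all genes were called lower, 2 were lower and 0 higher, Cd4 (-0.86, SE 0.15, adjusted p = 0.0013) and the glucocorticoid receptor gene Nr3c1 (-0.86, SE 0.22, adjusted p = 0.033), with a median of -0.17 against -0.01 over all genes. For R1984A against MigR1 in GSI, with 0.326% of all genes called lower, 1 was lower, Cd4 (-0.71, SE 0.15, adjusted p = 0.012), and the median was -0.21. Set against ICN1-GSI, R1984A-GSI showed 0 calls among the 8 by limma, 2 of them at an unadjusted p under 0.05, as were 8.88% of all genes. Cd4 averaged 3.39 in ICN1-GSI, 3.53 in R1984A-GSI and 3.86 in MigR1-DMSO, below the array medians, so the sizes of its differences are uncertain. The Nr3c1 call was lost without MigR1-GSI replicate 1 (adjusted p = 0.12), MigR1-GSI replicate 2 (0.12) or ICN1-GSI replicate 3 (0.24), where the difference was -0.54, and in a fit of only these groups (0.23). The Cd4 call in R1984A-GSI was lost without MigR1-GSI replicate 1, R1984A-GSI replicate 2 or R1984A-GSI replicate 3 (adjusted p up to 0.060). That of Cdkn1b was lost without DNMAML-DMSO replicate 3 (adjusted p = 0.075), with the lowest probe set per gene (0.26) and in a fit of only these groups (0.065).

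Members of 2 marker lists were called in these comparisons. Of all genes, 1.1% were called higher for DNMAML against MigR1 in DMSO. Called lower for ICN1 against MigR1 were 1.07% in GSI and 0.306% in DMSO. For R1984A against ICN1, 156 of the 19938 genes were called higher in GSI and 0.702% in DMSO. Of the 10 T-cell markers, Cd247, the zeta chain of the T-cell receptor (1.08, SE 0.18, adjusted p = 0.0010), and Thy1 (0.72, SE 0.15, adjusted p = 0.0079) were higher for DNMAML against MigR1 in DMSO, and the Thy1 call was lost without MigR1-DMSO replicate 3 (adjusted p = 0.063). Ptprc, the leukocyte antigen CD45, was lower for ICN1 against MigR1 in GSI (-0.66, SE 0.12, adjusted p = 0.0019, or 0.16 in a fit of only these groups). It was higher for R1984A against ICN1 in GSI (0.58, SE 0.12, adjusted p = 0.013), a call lost in 3 of 6 fits without 1 array (adjusted p up to 0.10) and in a fit of only these groups (0.29). The summed log2 level of the T-cell list was 82.8 to 84.6 in DNMAML-DMSO and 80.2 to 82.2 in MigR1-DMSO, with no overlap. ICN1-DMSO, at 79.1 to 80.0, lay wholly below MigR1-DMSO, and R1984A-DMSO, at 79.6 to 82.0, overlapped MigR1-DMSO. In GSI the T-cell sum was 78.8 to 81.5 in R1984A, 78.9 to 81.6 in ICN1 and 79.8 to 82.8 in MigR1 cells, all overlapping. Pecam1, which leukocytes also express, was the 1 of 7 endothelial and smooth muscle markers called in DNMAML against MigR1 in DMSO (1.04, SE 0.18, adjusted p = 0.0019) and in ICN1 against MigR1 in GSI (-1.16, SE 0.18, adjusted p = 2.8e-04, or 0.055 in a fit of only these groups). It was also called in ICN1 against MigR1 in DMSO (-0.76, adjusted p = 0.047) and in R1984A against ICN1 in DMSO (0.82, adjusted p = 0.021). These were lost without 1 array in 5 of 6 fits for ICN1 (adjusted p up to 0.24) and in 4 of 6 for R1984A (up to 0.12). The summed log2 level of the endothelial list was 28.3 to 29.1 in DNMAML-DMSO and 27.1 to 27.4 in MigR1-DMSO. ICN1-DMSO, at 25.9 to 26.6, lay below MigR1-DMSO, and R1984A-DMSO, at 26.8 to 27.4, overlapped MigR1-DMSO. In GSI the endothelial sum was 26.1 to 26.4 in ICN1, 26.4 to 28.0 in R1984A and 28.2 to 28.7 in MigR1 cells. Against MigR1, the sums include the Pecam1 differences of 1.04 for DNMAML-DMSO, -1.16 for ICN1-GSI and -0.76 for ICN1-DMSO. Pecam1 was not called for R1984A against MigR1 in either treatment. Of the 7 genes summed, 5 lay below the array medians in all 8 groups, so the sums do not show a change across the list. The part of either list in the differences of Hes1 and Hey1 was not tested.

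The genes most like a member were named by the Pearson r over the 8 group means, among 2685 genes whose group means spanned at least 0.5. Closest to Hey1 were Egr1, an immediate early transcription factor (r = 0.98), Pex11a, a peroxisome membrane protein (0.98), and Ythdc2, an RNA helicase (0.97). Closest to Hes1 were Pwp1, a nucleolar protein (0.99), Lsm1, a subunit of an mRNA decay complex (0.99), and Thap12 (0.99). Their group means spanned less than those of Hes1 (1.29), at 0.83 for Pwp1, 0.50 for Lsm1 and 0.59 for Thap12. For Heyl the closest were Zfp608 (0.93), Pakap (0.91) and Sh2d1a, an adaptor of lymphocyte receptors (0.91). The 8 points share constructs and treatments, and no test was made.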

How the data were processed

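RNA from 24 T6E samples in 8 groups of 3 was measured on Affymetrix Mouse Gene 1.0 ST arrays. The authors deposited a log2 expression value for each probe set on each array, the scale being read from the range of 1.28 to 13.47. Oligo and limma were used by the authors, per the submitters' processing notes, with versions and steps not given in the sources used here, so how background correction and normalization shaped low values is unknown. Of 35556 probe sets, 21789 had 1 symbol in the platform annotation, 1621 several and 12146 none here. The probe set with the highest mean was kept, leaving 19938 genes, with no filter on dim ones.

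Limma 3.58.1 in R 4.3.3 was fitted with 1 mean per group over all 24 arrays (16 residual degrees of freedom). The fit was checked on simulated arrays with independent noise. That check leaves out the shared deviations of same-numbered samples described below, so it does not bear on them. The number of arrays limits the precision. There were 12 comparisons of groups and 4 of responses. The members, gene lists, tests and alternatives were chosen with earlier results of these data known. From each list up to 4 called genes with the largest change were named, and for members whose group means spanned at least 0.5 the 3 genes of the most similar pattern, without clone names, small RNAs or antigen receptor segments. Titles number the samples of a group 1 to 3. Same-numbered samples deviated together from their group means with r above 0.1 in every pair for 7 of the 12 comparisons, the lowest being 0.114 for DNMAML in DMSO, and not for the other 5, where the lowest was -0.06 for R1984A against MigR1 in GSI. Motifs were counted with Python 3.11.15. Sequences for Hes1, Hey1 and Heyl, and protein sequences, are not used here.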

Additional observations from a re-analysis of the deposited data

Results flagged for a closer look

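The response of Hey1 to GSI differed between constructs by a test of the difference itself. In ICN1 cells it was 0.98 above the response in MigR1 cells (log2, adjusted p = 0.0090 by limma), with 3 of 3 GSI arrays below the DMSO arrays in MigR1 cells and overlapping arrays in ICN1 cells. In R1984A cells it was 0.88 above that in MigR1 cells (adjusted p = 0.030), with 3 of 3 GSI arrays (9.84 to 9.94) below the DMSO arrays (10.01 to 10.06) in R1984A cells too. The R1984A call was lost in 11 of 12 fits without 1 array (adjusted p up to 0.15) and in a fit of only the groups compared (0.35), and the ICN1 call in 2 of 12 (up to 0.057) and in a fit of only the groups compared (0.16). No other member differed in this way by the test.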

How the results depend on the processing

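The 6 alternatives were a replicate block, only the groups compared, a second quantile normalization, a filter on dim genes (which kept 5 of 6 members, without Hey2), the lowest probe set per gene and array weights, beside fits without 1 array. None of the 11 calls of a member changed direction in any of them, and no member gained a call. The block, the fit of only the groups compared and the filter leave the differences themselves unchanged by design. Each member has a single probe set, so the choice of the lowest one leaves them unchanged too. Direction could therefore change only with the second normalization, array weights or fits without 1 array. With the replicate block, Hey1 stayed called for GSI in MigR1 cells at -0.998, the block moved none of the counts of members called (1 for GSI in MigR1 cells), and it changed no other call of a member. In fits of only the groups compared, the members called went to 0 for GSI in MigR1 cells, GSI in DNMAML cells, R1984A against ICN1 in GSI and the Hey1 response to GSI of ICN1 or of R1984A against MigR1 cells, and fewer samples estimate the spread there. In fits without 1 array, the members called were 1 to 2 for DNMAML against MigR1 in DMSO, 0 in each for ICN1 against MigR1 in DMSO, and 0 to 1 for GSI in DNMAML cells, for R1984A against ICN1 in GSI and for the responses to GSI of ICN1 and of R1984A against MigR1 cells. The cause was not tested.

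Counts over all genes, the background of the shares above, moved more. From 33 for GSI in MigR1 cells they reached 4 with only the groups compared and 82 with the replicate block, from 386 for DNMAML in DMSO 262 and 934 in the same fits, and from 38 for DNMAML in GSI 5 and 163. From 469 for ICN1 in GSI they reached 167 and 960, from 272 for R1984A in GSI 96 and, with array weights, 690, and from 220 for R1984A against ICN1 in GSI 51 and 739. In DMSO, from 145 for ICN1 they reached 110 with only the groups compared and 316 with array weights, and with only the groups compared and the block 129 and 366 from 195 for R1984A and 139 and 456 from 192 for R1984A against ICN1. From 1, 3 and 5 for the responses of DNMAML, ICN1 and R1984A against MigR1 cells they reached 4, 8 and 16 at most (and 0 for R1984A with only the groups compared), and 1 gene from 0 for GSI in ICN1 cells. Without 1 array the counts were 15 to 21 for GSI in MigR1 cells (lowest without MigR1-DMSO replicate 2), 186 to 291 for DNMAML in DMSO (MigR1-DMSO replicate 3), 9 to 23 for DNMAML in GSI (DNMAML-GSI replicate 2), 351 to 411 for ICN1 in GSI, 179 to 244 for R1984A in GSI (R1984A-GSI replicate 3) and 115 to 184 for R1984A against ICN1 in GSI (ICN1-GSI replicate 3). In DMSO they were 79 to 105 for ICN1 (MigR1-DMSO replicate 2), 130 to 155 for R1984A (R1984A-DMSO replicate 2) and 99 to 145 for R1984A against ICN1 (ICN1-DMSO replicate 3). Shares of all genes called scale with these counts. Hes1 and Heyl lie close to the array medians and Hey2 below them, which limits what their differences can show.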
